A study of Mus musculus with 32 samples.

Results

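SST interneurons were compared between the hippocampus and the cortex of wild-type mice, in ribosome-associated RNA from 4 hippocampal libraries (replicates 1, 2, 3 and 5, whose titles carry a W) and 4 cortical libraries (replicates 1 to 4, whose titles do not). These 8 libraries were chosen by their titles and tissue labels, of 32 in the series. The series mapped ribosome-engaged transcripts of genetically defined neuron classes, and this comparison asks how far 1 class differs between 2 regions. The other libraries, 4 per group, come from CamK neurons of both regions, Grik hippocampus, and Scnn, PV and VIP cortex, all wild type. The labels give no age, driver line, method of isolating ribosomes or number of animals per library, and do not say that replicates came from separate animals. The p-values below therefore measure only the spread between libraries, which may be technical.

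As background from the field, SST cells are GABAergic interneurons that release the peptide somatostatin and mostly contact the dendrites of excitatory neurons. In the cortex many are Martinotti cells, which send axons to the superficial layer. In the hippocampus a prominent type is the oriens lacunosum-moleculare cell, which inhibits the distal dendrites of pyramidal neurons. Both arise mainly in the medial ganglionic eminence of the embryo. RNA bound to ribosomes is enriched for transcripts under translation, so a regional difference in it can reflect transcript level, ribosome loading or the mix of SST subtypes captured.

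The values are expected counts for 56459 features, whose identifiers (GSMG plus digits) the file does not pair with gene names. None of them, 0 of 56459, occurred in the reference tables, so the label SST could not be checked against somatostatin or other markers, markers of other cell types could not be looked up, no sequence can be shown, and features are named by identifier only. Of all features, 24555 could be tested, 43.5%. The counts summed to 104350512 to 109618936 in the cortical SST libraries, to 109141183 to 114153919 in hippocampus replicates 2, 3 and 5, and to 186505391 in hippocampus replicate 1. Levels are given as CPM, the share of a library's counts scaled to a common total with TMM normalisation, and 1 CPM stood for 104 to 187 counts in these libraries.

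The regions separated cleanly at the level of libraries. On the first principal component of the 8 libraries, which held 37.4% of the variance, the hippocampal libraries lay at 61.2, 63.5, 71.2 and 50.1 and the cortical ones at -67.3, -74.1, -51.7 and -53. The second component, 13.9% of the variance, ran from -49.8 to 29.8 among hippocampal and from -53.4 to 58.5 among cortical libraries, so it spread the replicates within both regions. Root mean square distances on the log2 CPM scale were 0.774 to 0.909 within cortex, 0.79 to 0.912 within hippocampus and 0.979 to 1.17 between regions, with no overlap between the within-region and between-region pairs. All 8 libraries lay closer to every other SST library than to any library of another population, the nearest of which was PV cortex replicate 1 for each of them, at 1.19 to 1.32.

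**Figure D1:**
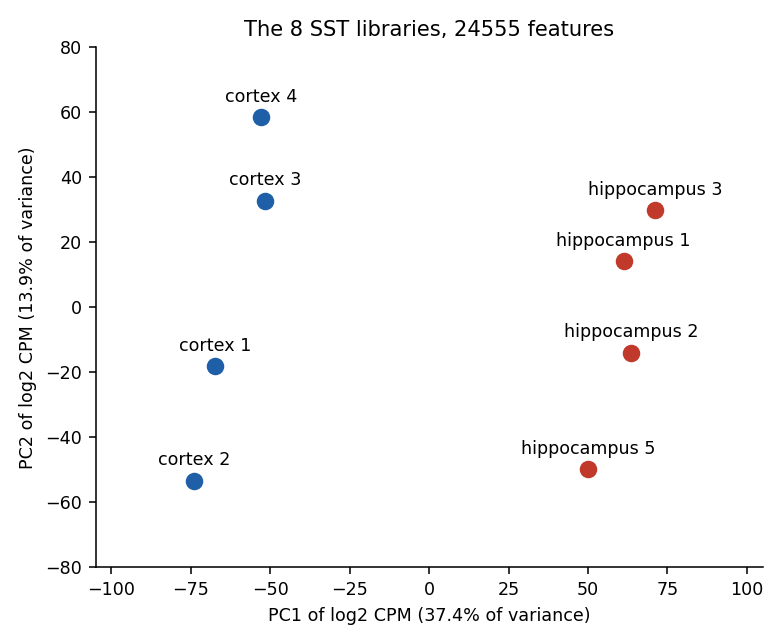
Position of the 8 SST libraries on the first and second principal components of log2 CPM over 24555 features (x, 37.4% of variance; y, 13.9%), red for hippocampus and blue for cortex, labelled by replicate number. The hippocampal libraries lie at 50.1 to 71.2 on the first component and the cortical ones at -74.1 to -51.7.

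No difference in the breadth of the profiles passed the test. Features at 1 CPM or more numbered 14079, 14092, 14194 and 14119 in the hippocampal and 14050, 13997, 14043 and 14156 in the cortical libraries, ranges that overlap (exact permutation test, two-sided p = 0.229, adjusted p = 0.229 over 3 measures, n = 4 each, smallest possible p 0.0286). The 100 most abundant features held 23.7%, 23.4%, 21.5% and 23.7% of counts in the hippocampal libraries and 20.8%, 21.6%, 21.6% and 21.7% in the cortical ones. This difference of 1.68 percentage points also did not pass (exact permutation p = 0.114, adjusted p = 0.229), and hippocampus replicate 3 lay within the cortical range. The mean distance of a library to the others of its region was 0.875 ± 0.0288 in hippocampus and 0.847 ± 0.0226 in cortex (SD, n = 4 each), which did not pass either (exact permutation p = 0.2, adjusted p = 0.229). Libraries of a region share these distances, so the values are not independent and this p is only a rough guide. With a smallest possible p of 0.0286, a difference in 1 measure alone could not have passed after adjustment over 3.

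A majority of the tested features was alike in both regions. For 12753 of the 24555 features (51.9%) the 95% interval of the log2 difference lay within 2-fold either way. A feature was called different at an edgeR adjusted p under 0.05 and an estimated difference of at least 2-fold, which 1833 features were (7.46%), 963 higher (3.92%) and 870 lower (3.54%) in the hippocampus. The remaining 9969 features (40.6%) were neither called nor shown to be alike, and their median level in the higher region was only 0.168 CPM, against 22.5 CPM for the alike features. In all 4 libraries against all 4, with no overlap, 25.2% of tested features differed one way or the other, and 786 of the 963 higher and 771 of the 870 lower features did so. Which side was larger turned under several settings given in the closing section, so the split is read as about even.

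**Figure D2:**
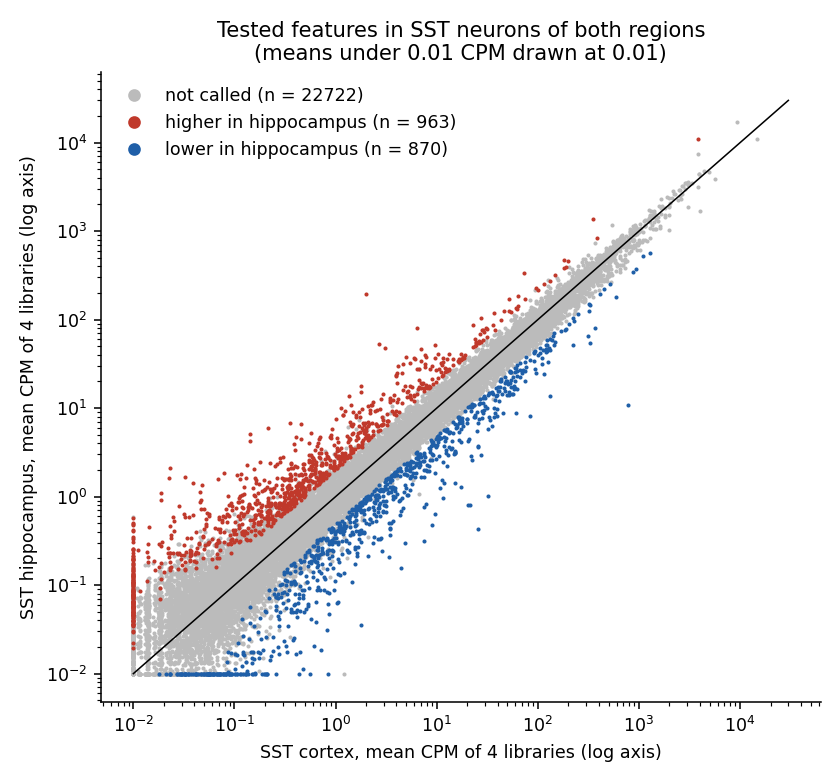
Mean CPM of each tested feature in SST cortex (x, log axis) and SST hippocampus (y, log axis), with the diagonal of equal levels, the 963 features higher in hippocampus in red and the 870 lower in blue. Abundant features hug the diagonal, with few exceptions, while the called features spread mostly below 10 CPM.

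Regional differences were least frequent among abundant features. Where the higher region had a mean of 100 CPM or more, 93.1% of 2274 features were alike and 3.12% were called, 25 higher and 46 lower in the hippocampus. Between 10 and 100 CPM 91% of 7097 features were alike and 4.4% were called, with 127 higher and 185 lower. Between 1 and 10 CPM 63.7% of 5231 features were alike and 13.2% were called, the largest share of the 4 classes, with 375 higher and 316 lower. Below 1 CPM 7.63% of 9953 features were called but only 8.49% were alike, so most of these features were neither called nor bounded within 2-fold. The alike share of this class includes features at 0 in all 8 SST libraries. The larger side thus was the hippocampal one below 10 CPM and the cortical one above it.

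**Figure D3:**
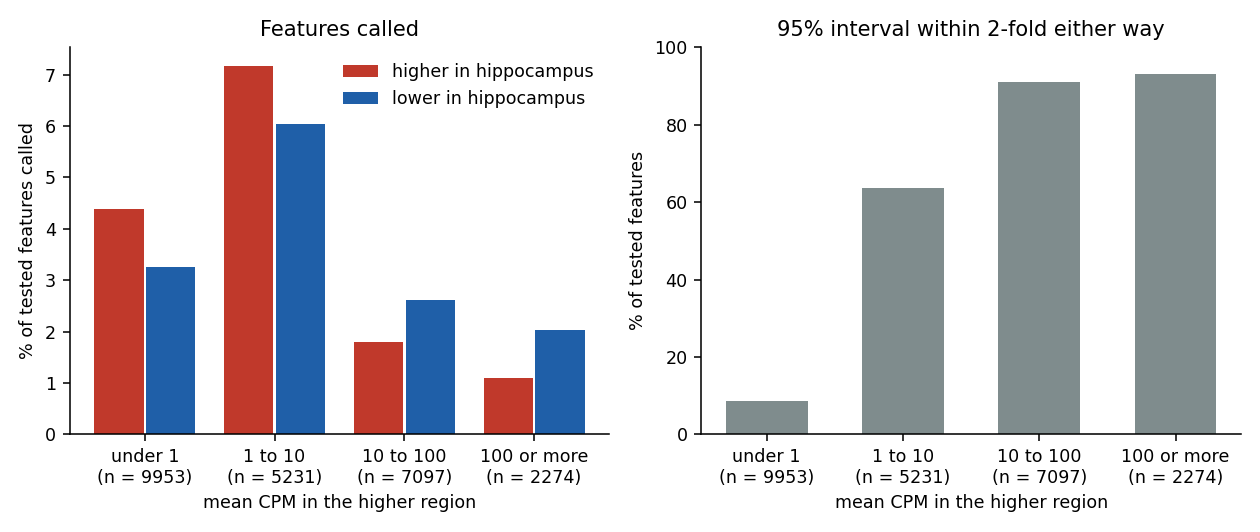
Left, percent of tested features called higher (red) or lower (blue) in SST hippocampus, and right, percent whose 95% interval of the log2 difference lay within 2-fold either way, by mean CPM in the higher region (x, number of features under each class). Calls peak at 1 to 10 CPM (7.17% higher, 6.04% lower) and similarity rises from 8.49% to 93.1%. Features at 0 in all 8 SST libraries fall in the lowest class and count as within 2-fold.

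The typical called difference was moderate. Of the 1833 called features, 1074 had at least 1 CPM in the higher region, and among these the median difference was 2.98-fold for the 527 higher and 2.71-fold for the 547 lower features. Differences of 2 to 4-fold made up 69.6% of the higher (367) and 77.5% of the lower features (424). Differences of 8 to 16-fold were seen in 32 higher and 23 lower features, and those of 16-fold or more in 17 and 12. Among the 759 called features under 1 CPM, 154 were at 0 in all 4 libraries of 1 region, and their fitted differences depend on the prior count and are not read here. Median lengths were 1930 bases for features higher in hippocampus, 1767.5 for those lower and 1639 for all tested, with quartiles of 954 to 2707 for the last.

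The 50 most abundant called features on each side mostly differed moderately. Those higher in hippocampus had means of 48.3 to 10900 CPM there (median 101) and a median difference of 2.34-fold, and 42 of the 50 showed no overlap of libraries. Those lower in hippocampus had 91.6 to 1280 CPM in cortex (median 144) and a median difference of 2.48-fold, and none of the 50 overlapped. Being called already favours no overlap, which held for 81.6% of all higher and 88.6% of all lower features. Over all tested features it held for 25.2%, so nothing is read from these counts. In cortex, the features of the lower set together took 1.77% to 2.34% of CPM, against 0.702% to 0.887% in hippocampus. The higher set took 1.52% to 3.53% in hippocampus and 0.721% to 0.894% in cortex. Without its single most abundant feature the higher set took 1.09% to 1.41% in hippocampus and 0.427% to 0.484% in cortex.

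That feature was the most abundant of all those called higher in hippocampus, with 14200, 21200, 4110 and 4270 CPM in the hippocampal libraries and 4440, 2940, 3760 and 4040 CPM in the cortical ones. Only hippocampus replicates 1 and 2 exceeded the cortical range. Its log2 difference of 1.53 (SE 0.553, edgeR adjusted p = 0.0496) was 0.97 without hippocampus replicate 2 (adjusted p = 0.258, with 0.0245 to 0.832 over all alternatives), and the call was lost in 10 of 19 alternatives, among them leaving out hippocampus replicate 1 or any 1 of the cortical libraries. It also varied within groups outside SST, from 2740 to 15800 CPM in Scnn cortex and from 1560 to 8370 CPM in PV cortex. Its counterpart, the most abundant feature lower in hippocampus, had 627, 689, 466 and 490 CPM in hippocampus and 1260, 1520, 874 and 1450 CPM in cortex, a log2 difference of -1.17 (SE 0.182, edgeR adjusted p = 2.12e-05), and the SST groups did not overlap. Its call was lost in 1 of 19 alternatives, the test against 2-fold itself (adjusted p = 0.84, with 8.6e-10 to 0.84 over all alternatives).

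The features with the smallest p on each side, among those with at least 5 CPM in the higher region and no overlap, were GSMG0040773 and GSMG0010263 for hippocampus and GSMG0002619 and GSMG0030464 for cortex. GSMG0040773 (length 4417 bases) stood at 84.8, 87.6, 75.9 and 69.8 CPM in hippocampus and at 6.42, 4.15, 7.03 and 7.98 CPM in cortex. The lowest hippocampal library was far above the highest cortical one, and the difference was 12.4-fold (log2 3.64, SE 0.157, edgeR adjusted p = 6.05e-17, higher in 4 of 4 libraries). GSMG0010263 (4570 bases) stood at 30.8, 32.2, 30 and 26 CPM in hippocampus and at 3.34, 3.9, 4.1 and 5.19 CPM in cortex. Again all hippocampal libraries were higher, by 7.19-fold on average (log2 2.85, SE 0.166, adjusted p = 4.62e-14).

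In the other direction, GSMG0002619 (912 bases) had 5.04, 6.74, 6.61 and 6.58 CPM in hippocampus and 36, 38.2, 31.1 and 34.7 CPM in cortex. The difference was 5.61-fold in favour of cortex (log2 -2.49, SE 0.109, edgeR adjusted p = 6.05e-17), with all 4 cortical libraries higher. GSMG0030464 (535 bases) had 6.21, 9.08, 8.26 and 8.43 CPM in hippocampus and 37.8, 40.8, 34 and 34.8 CPM in cortex. It was 4.62-fold higher in cortex (log2 -2.21, SE 0.104, adjusted p = 2.41e-16), and no library overlapped. The absence of overlap was a condition for choosing all 4 features, so it adds nothing to their p-values. These calls held in each of the 19 alternatives, with log2 values of 3.47 to 3.84, 2.75 to 3.04, -2.55 to -2.41 and -2.29 to -2.11 in the order named.

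The other populations placed these features differently. GSMG0040773 was also higher in the hippocampus in CamK neurons, with 85.9 ± 5.82 CPM against 24.7 ± 2.2 CPM in cortex (SD, n = 4 each), and it was highest in Grik hippocampus at 285 ± 27.7 CPM. Among cortical interneurons it stood at 48.6 ± 8.94 CPM in VIP but at only 1.37 ± 0.242 CPM in PV. GSMG0010263 likewise was highest in Grik hippocampus (47.6 ± 6.54 CPM), at 31.4 ± 1.79 CPM in CamK hippocampus and 15.8 ± 1.99 CPM in CamK cortex, and lowest in VIP cortex (1.77 ± 0.382 CPM). For both, SST hippocampus and CamK hippocampus stood at similar levels while their cortical counterparts did not.

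For the pair higher in cortex, CamK neurons showed little regional difference. GSMG0002619 was at 24.2 ± 2.61 CPM in CamK cortex and 21.9 ± 2.92 CPM in CamK hippocampus (log2 -0.14, SE 0.103, adjusted p = 0.299), whereas Grik hippocampus, at 7.68 ± 0.49 CPM, stood near SST hippocampus. GSMG0030464 was at 65.1 ± 4.36 and 61.5 ± 2.83 CPM in CamK cortex and hippocampus (log2 -0.08, SE 0.0987, adjusted p = 0.568). It was at 37.3 ± 2.9 CPM in Grik hippocampus and at 29.5 to 65.1 CPM on average in each group other than SST hippocampus, whose mean of 8 ± 1.24 CPM was below all of them. These 4 features were chosen for their small p in the SST libraries that the comparison with CamK uses again, so its values are a description. The regional effect in SST minus that in CamK was 1.84 (SE 0.202), 1.86 (SE 0.221), -2.34 (SE 0.148) and -2.12 (SE 0.142) on the log2 scale, in the order named above.

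**Figure D4:**
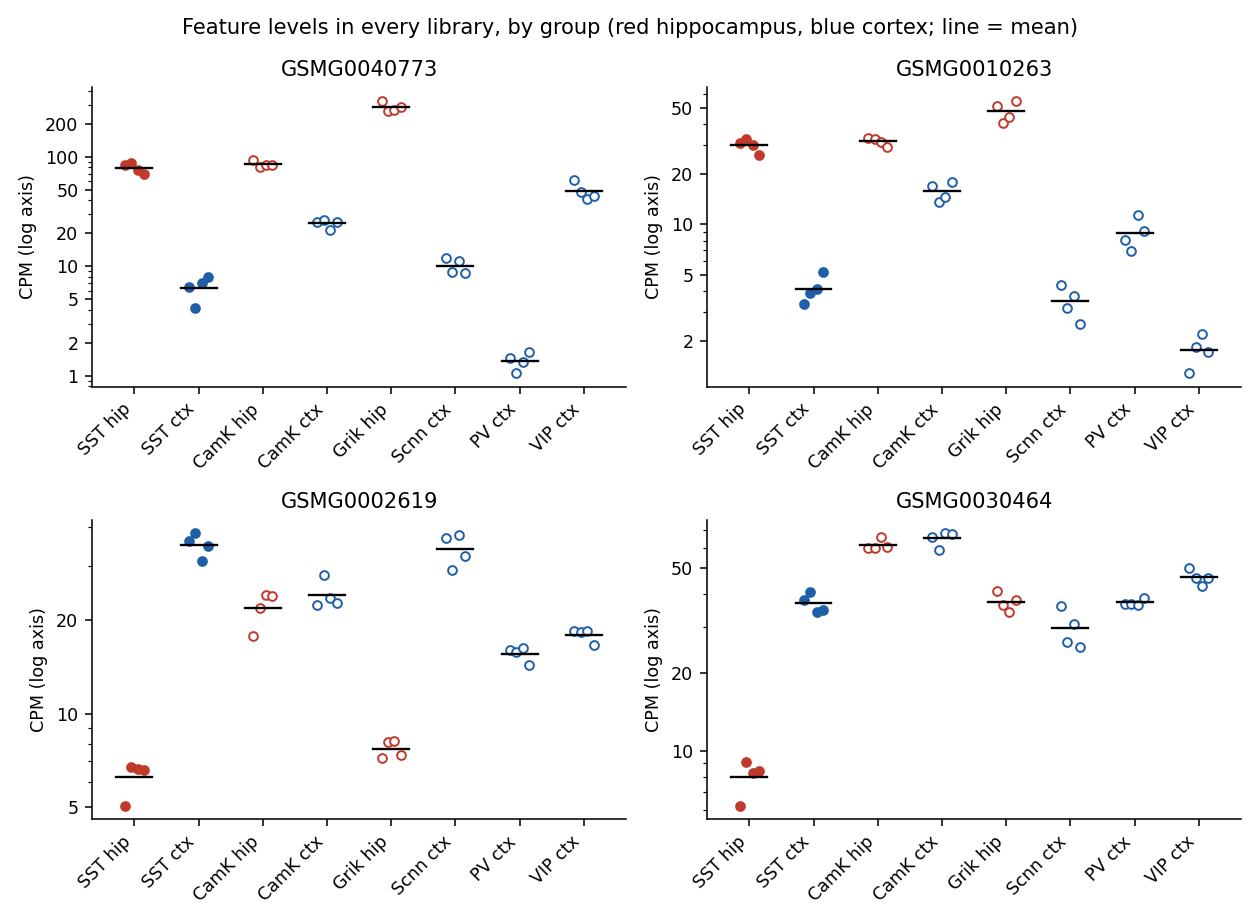
CPM (y, log axis) of the 4 features in every library, by group (x), filled points for SST and open points for other populations, red for hippocampus, blue for cortex, black line for the group mean of 4. SST hippocampus lies at 69.8 to 87.6 CPM for GSMG0040773, above SST cortex at 4.15 to 7.98, and at 6.21 to 9.08 CPM for GSMG0030464, below every other library.

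The largest estimates belonged to less steady features. Among called features with at least 5 CPM in the higher region, the largest log2 difference toward hippocampus was 6.61 (SE 1.56, edgeR adjusted p = 0.00273). This feature had 228, 3.42, 329 and 223 CPM in the hippocampal libraries and 0.111, 0.288, 6.39 and 1.16 CPM in the cortical ones. Hippocampus replicate 2 thus fell below cortex replicate 3, and the groups overlapped. The estimate was 8.54 without cortex replicate 3. With the replicate number as a block it was 6.67 and not called (adjusted p = 0.158, with 1.26e-06 to 0.158 over its alternatives). That block leaves cortex replicate 4 and hippocampus replicate 5 without a partner, so it rests on fewer libraries. Among Grik libraries the same feature varied between 0.467 and 147 CPM, and CamK hippocampus held 17.4 to 61.1 CPM of it. The largest log2 difference toward cortex, -6.17 (SE 0.533, adjusted p = 4.18e-09), came from a feature with 734, 1050, 544 and 768 CPM in cortex and 6.33, 4.66, 4.53 and 27.6 CPM in hippocampus. There replicate 5 stood above the other hippocampal libraries, and without it the estimate was -7.22. In the 6 groups outside SST this feature averaged 5.53 to 44.6 CPM, so its high level was found in SST cortex among the groups sampled.

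Few features were found almost exclusively in one region. Only 10 called features had at least 1 CPM in hippocampus and under 0.1 CPM in cortex, with hippocampal means of 1.03 to 2.1 CPM, and only 3 showed the reverse, with cortical means of 1.02 to 1.77 CPM. In the 6 groups outside SST, 8 of the 10 and all 3 of the 3 stayed under 1 CPM on average. Of the 10 hippocampal features, 8 were lowest in hippocampus replicate 2 among the hippocampal libraries, and 6 were at least 4-fold lower there than in each of the other three. Replicate 2 was also at least 4-fold below the other hippocampal libraries, all of these at 1 CPM or more, in 15 features, against 3 features for each of the other hippocampal replicates. Of these 15, 10 were called higher in SST hippocampus, against 3.92% of all tested features. In CamK neurons 8 were called higher in hippocampus than in cortex, against 5.43% of all tested, and 12 had their highest level outside SST in a hippocampal group, against 27.3%. The 15 were chosen by a level of at least 1 CPM in the other hippocampal libraries, which favours features high in hippocampus, so nothing is read from these counts. Without replicate 2 the comparison gave 1656 calls, of which 1507 were among the 1833.

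Libraries outside SST were then used to see where the regional features of SST neurons are found. Of the features higher in SST hippocampus, 40.7% had their highest level outside SST in a hippocampal group, against 27.3% of all tested features. Grik hippocampus was the highest for 28.7% against 15.5%, while CamK hippocampus stood at the background (12% against 11.8%). VIP cortex was the highest group for 38.3% of them, against 28.1% of all tested. Of the features lower in SST hippocampus, 45.3% were highest in CamK or Scnn cortex, against 23.2% of all tested, and only 15.3% in a hippocampal group. On the log2 CPM scale, the median level of the features higher in SST hippocampus was 0.24 there, 0.18 in Grik hippocampus and 0.16 in VIP cortex. It was -0.41 in Scnn cortex, -0.62 in CamK hippocampus, -1.26 in CamK cortex, -1.34 in PV cortex and -1.58 in SST cortex, so hippocampal groups did not rank above cortical ones throughout. The features lower in SST hippocampus had medians of 1.03 in SST cortex, 0.77 in CamK cortex, 0.66 in Scnn cortex and 0.42 in VIP cortex. Their medians were -0.11 in CamK hippocampus, -0.19 in PV cortex, -0.63 in SST hippocampus and -0.85 in Grik hippocampus. Over all tested features the median was 1.22 in both SST groups, 1.63 in VIP cortex and 1.06 to 1.35 in the other groups.

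**Figure D5:**
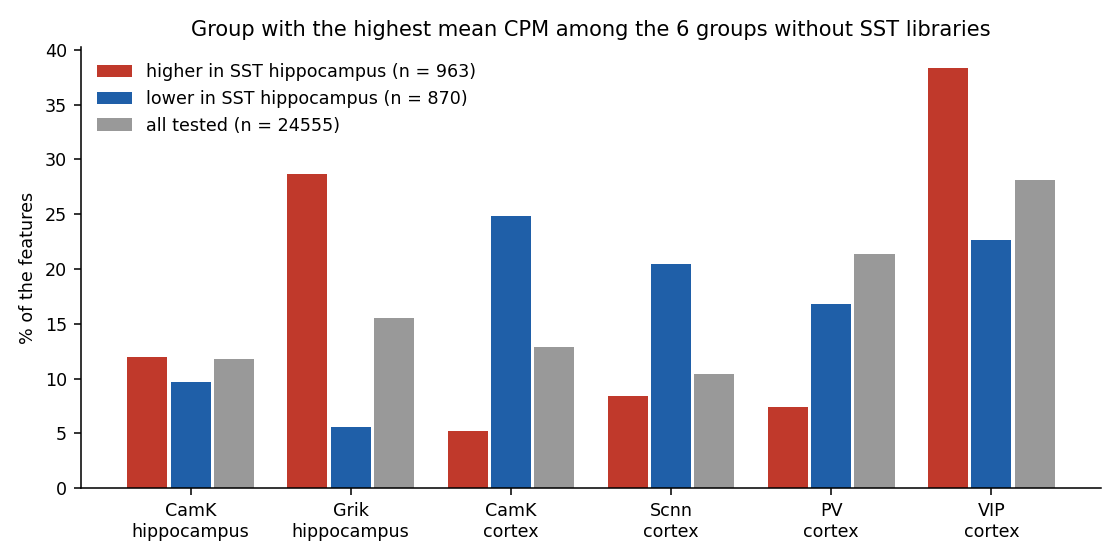
Percent of features (y) whose highest mean CPM among the 6 groups without SST libraries was in the group named (x), for features higher (red) or lower (blue) in SST hippocampus and for all tested features (grey). Grik hippocampus holds 28.7% of the higher features against 15.5% of all, and CamK cortex 24.8% of the lower features against 12.9%.

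The regional effect in CamK neurons, which rests on other libraries, was called the same way as that of SST for a minority of features. A feature not called in CamK can still lean the same way. The median log2 effect in CamK was 0.634 for the features higher in SST hippocampus and -0.832 for those lower. Over all tested features it was -0.00256. In CamK too the hippocampal titles carry the W and the cortical ones do not, so a shared call is not one of region apart from title series. Of the 963 features higher in SST hippocampus, 294 (30.5%) were also called higher in CamK hippocampus, where 5.43% of all tested features were, and they made up 22.1% of that list. In the reverse direction 85 (8.83%) were called lower in CamK hippocampus, close to the 8.46% of all tested features. Of the 870 features lower in SST hippocampus, 329 (37.8%) were also lower in CamK hippocampus, making up 15.8% of that list, and 69 (7.93%) were higher. Larger differences in SST did not go with steadily more agreement, since among features at 1 CPM or more the share called the same way in CamK was 30%, 39.6%, 31.2% and 58.8% from the 2 to 4-fold class up to the class of 16-fold or more, which holds 17 features, for those higher. For those lower it was 39.6%, 44.3%, 39.1% and 33.3%, the last over 12 features.

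A test of the difference between both regional effects called 2659 features, 10.8% of those tested. This test uses the same SST libraries as the regional calls, so the counts that follow are a description. Of the features higher in SST hippocampus, 336 (34.9%) were called with a more positive effect in SST than in CamK, against 6.4% of all tested, and 45 (4.67%) with a more negative one, against 4.43%. Of those lower, 301 (34.6%) were called with a more negative effect in SST and 53 (6.09%) with a more positive one. Of the 584 higher features not called in CamK, 245 had a more positive effect in SST by this test, and of the 472 lower ones, 217 had a more negative one. Among all 21144 tested features not called in CamK, 523 were called more positive and 474 more negative. For the remaining features a difference from CamK was not shown, so they cannot be called particular to SST.

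The title series moves with region, since the hippocampal titles of SST, CamK and Grik carry the W while the cortical titles of SST, CamK, Scnn and PV do not. Region and title series therefore cannot be told apart in the SST comparison, in the CamK comparison or in the calls both share. The cortical VIP libraries carry the W and the cortical PV libraries do not, though these also differ in cell class. Of the features higher in SST hippocampus, 578 (60%) were called higher in VIP than in PV cortex, where 20.7% of all tested features were, and 54 (5.61%) were called lower, against 8.87% of all tested. Of those lower in SST hippocampus, 339 (39%) were higher and 159 (18.3%) were lower in VIP, so in that set both shares exceeded the background. GSMG0040773 followed the first pattern and GSMG0010263 the opposite one, with VIP below PV. Counts above 0 were found in 29211 to 31063 features per VIP library and in 24819 to 27235 per PV library. The background shares were not matched for level. The part of the title series in the regional calls was not tested.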

How the data were processed

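Ribosome-associated RNA was sequenced in 32 libraries, 8 of them from SST neurons. The deposited values are expected counts per feature, made by the authors. The tools listed in the submitters' processing notes, with no role or version, are featureCounts, FastQC, SAMtools and Picard, and the build is GRCm38. No source used here gives the aligner, the annotation or the use of strand, so overlapping, antisense and near-identical features are uncertain. A deposited length per feature was taken as bases. Another 12 columns of per-sample values matched no label and were not used. Of values above 0, 20.1% were whole within 1e-06.

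After rounding, the counts entered edgeR 4.0.16 under R 4.3.3 (filterByExpr, TMM scaling, robust quasi-likelihood fit with 1 coefficient per group over all 32 libraries, 24 residual degrees of freedom). Features were called at a Benjamini-Hochberg adjusted p under 0.05 over 24555 features and at least 2-fold. The standard error was the log2 difference over the square root of F, and the 95% interval used the t distribution of the fit. CPM values are TMM-normalised, and log2 CPM used a prior count of 2. Exact permutation tests served for the library measures. The fit was tested on simulated data, with changes placed only in features with a mean above 1 CPM. At an adjusted p under 0.05 and in the right direction, it recovered 44 of 67 changes of 1.5-fold. It recovered 55 of 67 of 2-fold and 64 of 66 of 4-fold. Of 23333 unchanged features, 5 passed. Recovery under 1 CPM was not tested. Named features were the 2 each way with the smallest p among called features with at least 5 CPM in the higher region and no overlap, and the other features described were singled out after their values were seen. The lists and thresholds were chosen with earlier results of these data known. No marker list could be applied, because the identifiers carry no gene names. Alternatives were other filters, scalings and thresholds, DESeq2 1.42.0, halved counts, thinning, fewer libraries, a replicate block and leaving out each library.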

Additional observations from a re-analysis of the deposited data

Results flagged for a closer look

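In groups of 4, a library is reported here when its gap to the nearest other library exceeded Dixon's critical share of the group's range. Of 30 groups looked at, 7 met this. The usual rate of about 1 in 20 does not apply, because some items were chosen for extreme or uneven values. The count is therefore not set against chance. Hippocampus replicate 1 had a total of 186505391 counts, far above the other hippocampal libraries. Hippocampus replicate 3 was low in the share of counts in the 100 most abundant features (21.5%), as was cortex replicate 1 (20.8%). GSMG0002619 was lowest in hippocampus replicate 1 (5.04 CPM), which lowered the hippocampal mean of a feature already far below cortex. The feature with the largest difference toward cortex was high in hippocampus replicate 5 (27.6 CPM), and the one with the largest difference toward hippocampus was high in cortex replicate 3 (6.39 CPM).

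GSMG0043055, at 10 CPM or more or at 1 CPM or less in each of the 32 libraries, was at 0 CPM in cortex replicate 1 and at 52.9, 55 and 48.7 CPM in the other cortical SST libraries. All hippocampal SST libraries had it, at 61.4, 64, 75 and 31.8 CPM. It was not called between the regions (log2 0.57, SE 1.75, edgeR adjusted p = 0.871), and 6 of the 8 groups of the series held libraries of both kinds.

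For the 4 named features, which were chosen on the same SST libraries, the regional effect in SST minus that in CamK is listed because its edgeR test passed, and is given as a description. On the log2 scale it was 1.84 for GSMG0040773, 1.86 for GSMG0010263, -2.34 for GSMG0002619 and -2.12 for GSMG0030464.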

How the results depend on the processing

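The count of 1833 regional calls stayed within 1.5 times in 17 of 19 alternatives, and the count of 2659 for the difference between SST and CamK in 24 of 26. The exceptions concern the threshold. With the adjusted p alone, 5396 and 5694 features passed, and with a test against 2-fold itself (glmTreat), 478 and 893. Leaving out 1 library gave 1567 to 1807 and 2464 to 2658 calls. The replicate block gave 1520 calls, 1220 of them among the 1833, and 2178 for the difference. It was fitted to the libraries compared alone. Cortex replicate 4 and hippocampus replicate 5 have no partner there and add nothing to the regional effect of SST, and CamK has unpaired numbers too. Calls lost under the block thus cannot be told apart from the loss of libraries. Deviations of same-numbered libraries of the regions from their group means were hardly correlated (r = -0.0367, 0.058 and -0.00237 for numbers 1, 2 and 3). Pairs of unlike number gave -0.0865 to 0.123. These values cannot show whether libraries of 1 number share an animal or batch. The labels state no pairing, so the main fit uses the number as a name only. The larger side of the split (52.5% higher in hippocampus) turned under 1 CPM in at least 4 libraries (49.5%), the adjusted p alone (46.1%), glmTreat (48.1%), and without cortex replicate 1 (48%), 2 (48.6%) or 3 (49.8%) or hippocampus replicate 3 (49.8%). Halved counts gave 1880 calls, thinning of hippocampus replicate 1 gave 1812, and DESeq2 gave 2018. The number of features alike in both regions was 8571 within 1.5-fold. The 3 library measures stayed above an adjusted p of 0.05 in all their alternatives. A difference in 1 measure alone could not pass, since the smallest possible exact permutation p was 0.0286 before adjustment over 3. Without hippocampus replicate 3 the share of the 100 most abundant features had an adjusted p of 0.0857 in that test. No stability is therefore read from this. Most features under 1 CPM were neither called nor alike, and the part of depth in this was not tested for them. Over all tested features, halved counts left 12823 alike against 12753. Halving divided each count and did not redraw reads, so the relative spread between libraries hardly changed. It therefore cannot show the part of depth.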
